A study of Canis lupus familiaris with 20 samples.

Results

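The circadian clock genes and the gene of melatonin synthesis were followed in the retinas of dogs whose eyes had received ciliary neurotrophic factor (CNTF) or buffer. The set holds 10 genes, ARNTL, CLOCK, PER1, PER2, CRY1, CRY2, NR1D1, NR1D2, DBP and AANAT, of the 13225 genes named on the array. They were chosen by name, as features whose gene name or description is that of a member, and they correspond to 14 of the array's 43603 distinct probes. Of several probes of a gene, the one with the highest mean signal over the 20 arrays was the main probe, so that mean level is a description and supports nothing. The list was drawn up with earlier results of these arrays known, and the tests below are therefore no independent evidence for it.

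Both eyes of 10 dogs of a research colony were injected into the vitreous, the right eye with 12 µg CNTF, a cytokine of the gp130 family, and the left eye with PBS, and retinas were taken 1 week later. The 5 normal dogs were all male, 4 of them CNGB3+/m carriers and 1 (dog 3) CNGB3+/+. The 5 CNGB3-mutant dogs (CNGB3m/m), 3 of them female, carried a missense mutation of the beta subunit of the cone channel, whose loss causes day blindness. By the labels normal dogs were 8.9 weeks old and mutants 10.7 to 11.5 weeks, whereas the study's design text gives about 11 months for both. There were thus 4 groups of 5 arrays, for each genotype the buffer-injected and the CNTF-injected eyes. No group was left without an injection, and the PBS eye of each dog shared its body with a CNTF eye. The hour at which eyes were taken, on which levels of clock RNAs depend, was not given in the sources used here, but both eyes of a dog were collected together. Treatment nearly followed the slide that carried the arrays, and genotype went with labelled age, so these cannot be told apart. Genotype went with sex in part, as every female dog was a mutant, and the genotypes were also compared in male dogs alone.

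As background, the vertebrate clock is a feedback loop of transcription. ARNTL (BMAL1) and CLOCK form the activating dimer, PER and CRY proteins repress it, and NR1D1 and NR1D2 (REV-ERB alpha and beta) repress ARNTL in a second loop, while DBP is a transcription factor driven by the clock as an output. Photoreceptors of the mammalian retina make melatonin at night, AANAT carries out the acetylation step that sets its daily rhythm, and dopamine acts as the opposing signal of day.

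The values rest on 60-base probes, and 5 of them are shown because what can be said of their genes turns on where they lie. Positions are those of the array files on the dog genome build canFam2; the exon or untranslated part that a probe covers was not assigned here. The whole of each probe is meant to pair with its target, so no part is set in capitals.
AANAT, A_11_P0000027635, chr9:7237339-7237398, minus strand: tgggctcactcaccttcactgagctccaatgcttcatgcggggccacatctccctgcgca
NR1D1, A_11_P0000033988, chr9:25796946-25797005, plus strand: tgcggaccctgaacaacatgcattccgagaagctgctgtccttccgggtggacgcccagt
CLOCK, A_11_P084696, chr13:50624268-50627211, minus strand: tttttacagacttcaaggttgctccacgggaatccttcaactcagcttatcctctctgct
CRY1, A_11_P089671, chr10:34905111-34905170, plus strand: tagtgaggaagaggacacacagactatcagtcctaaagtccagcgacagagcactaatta
DBP-described, A_11_P140181, chr1:109735939-109735998, minus strand: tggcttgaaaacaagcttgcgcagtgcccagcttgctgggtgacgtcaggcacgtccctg

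The CLOCK probe spans 2944 bases of genome with 60 bases of probe, so it crosses at least 1 intron. The NR1D1 probe was named through its description, and 32 bases part it from the nearest probe of THRA, the thyroid hormone receptor alpha gene, which is read from the opposite strand. For 13 of the 14 probes at least 1 neighbouring gene on the array also lies within 10 genes of the member in the dog assembly UU_Cfam_GSD_1.0. The exception was the probe described as 6% of bovine DBP. It lies between probes of CPT1C and PRMT1, and the assembly has ADM5, not DBP, between those genes, whereas DBP stands between CA11 and SPHK2, whose nearest array probe is 819.4 kb away. This probe is therefore called the DBP-described probe, its values are given apart, and nothing measured with it is ascribed to DBP. Of the 4 probes named CA11, which together span 11006 bases where the gene has 5625 in the assembly, none was assigned to DBP.

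Levels are log2 signal after subtraction of each array's 75th percentile, so 0 is the signal of the 75th percentile and a unit is a factor of 2; levels of different probes are not compared. A probe was tested if at least 4 of the 5 arrays in some group read it well above background, which held for the main probes of 9 of 10 members. Differences are log2 estimates ± SE from limma, fitted over all probes with the dog as a block, with Benjamini-Hochberg adjusted p over all probes and a call at an adjusted p under 0.05. In CNTF against PBS eyes of normal dogs 6 of 9 members were called, 4 lower and 2 higher, where 51.2% of all tested probes were called, 27.6% lower and 23.6% higher. CLOCK, among those lower, passed the filter only through PBS eyes of normal dogs, so its call is no support. In mutant dogs 6 of 9 were called, 5 lower and 1 higher, against 28.9% of all probes, 17.3% lower and 11.6% higher. Without the DBP-described probe 5 of 8 were called in each genotype, 4 of them lower in normal and all lower in mutant dogs. The median difference of those 8 members was -0.37 in normal and -0.45 in mutant dogs, and that of all tested probes was -0.09 in both. With slide as a block, the DBP-described probe alone was called in either genotype, where 3.92% (normal) and 2.72% (mutant) of all tested probes were called. With slide and dog as blocks no member was called, where 0% (normal) and 0.161% (mutant) of all tested probes were.

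**Figure D1:**
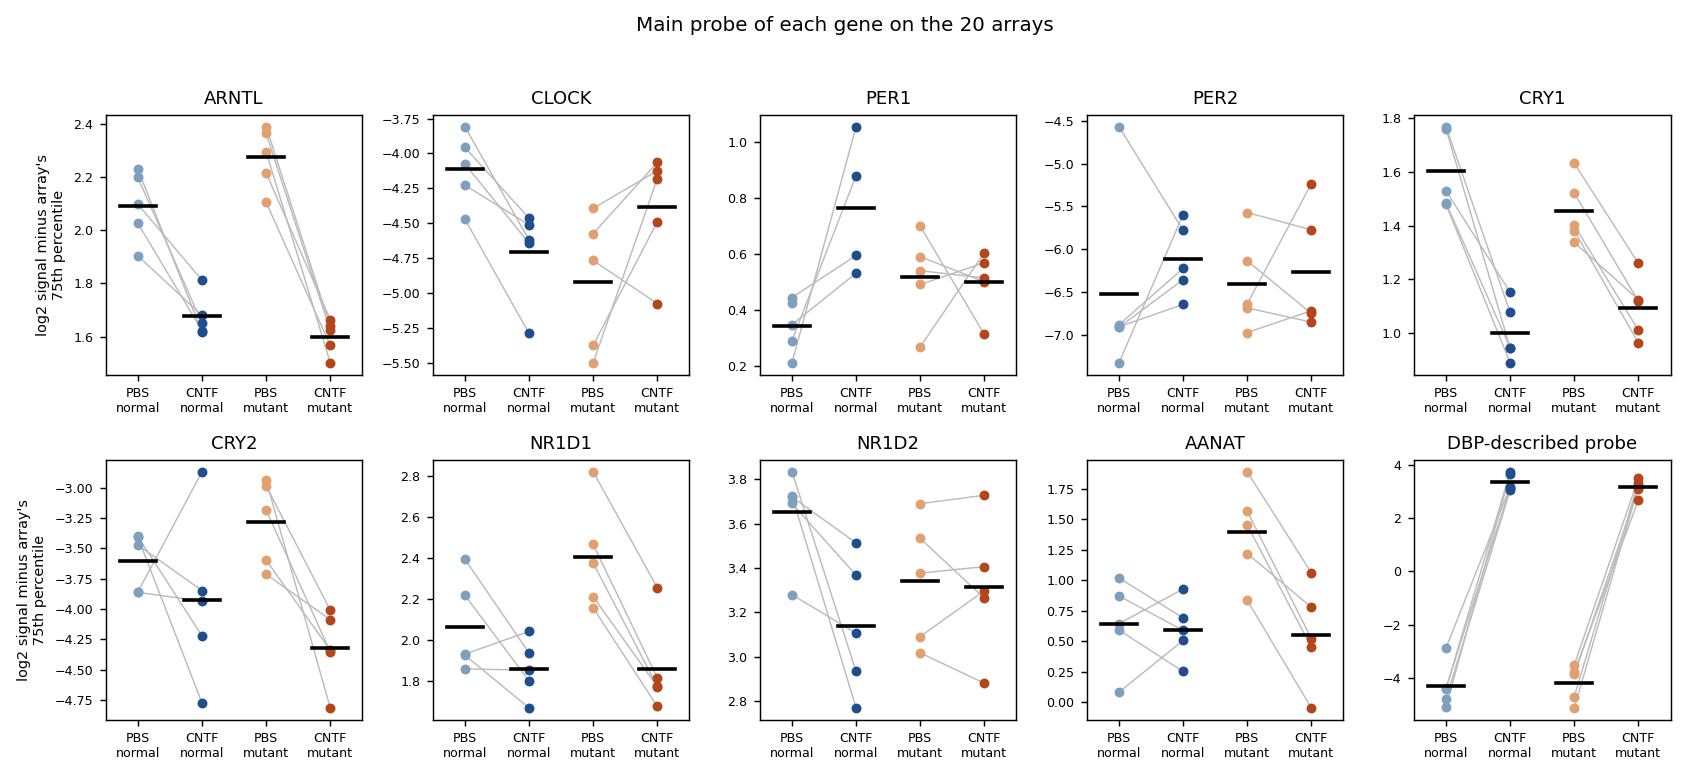
Level of the main probe of each gene on the 20 arrays (log2 signal minus the array's 75th percentile, own scale per panel), with a point per array, a black bar at the group mean and a grey line joining both eyes of a dog. ARNTL and CRY1 lie lower in all 10 CNTF eyes than in the PBS eyes of the same dogs, and AANAT lies lower in the CNTF eyes of all 5 mutant dogs but of 3 of 5 normal dogs.

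ARNTL, the partner of CLOCK in the activating dimer, fell in the CNTF eyes of both genotypes. In normal dogs 1 to 5 its level was 2.20, 2.03, 2.10, 1.90 and 2.23 in PBS eyes and 1.65, 1.62, 1.81, 1.68 and 1.62 in CNTF eyes. In mutant dogs 1 to 5 it was 2.10, 2.21, 2.36, 2.39 and 2.29 in PBS eyes and 1.57, 1.66, 1.62, 1.64 and 1.50 in CNTF eyes. Every CNTF eye lay below every PBS eye of its genotype. The difference was -0.41 ± 0.09 in normal dogs (1.33-fold lower, n = 5 dogs, adjusted p = 0.00387) and -0.67 ± 0.09 in mutants (1.60-fold lower, n = 5, adjusted p = 0.000257). With slide as a block the sizes were -0.71 (adjusted p = 0.117) and -0.84 (adjusted p = 0.0759). The call in normal dogs was also lost with normexp background correction (-0.44, adjusted p = 0.0707) and without the dogs of slide 3 (-0.37, adjusted p = 0.0526).

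CLOCK could be measured in only part of the arrays. In PBS eyes of normal dogs 1 to 5 its level was -4.47, -4.23, -4.08, -3.81 and -3.96, and all 5 were well above background. None of the 5 CNTF eyes of normal dogs was (-5.29, -4.51, -4.64, -4.62 and -4.46), nor any of the 5 PBS eyes of mutants (-4.77, -4.57, -4.39, -5.50 and -5.38). Of the CNTF eyes of mutants (-5.08, -4.07, -4.12, -4.18 and -4.49) 3 were. Only a bound on group means can be given, against the lowest signal that counts as well above background on each array. By it, mean CLOCK signal was at least 1.04-fold higher in PBS than in CNTF eyes of normal dogs (limma, adjusted p = 0.0238). Between PBS eyes of normal and mutant dogs the bound was 1.17-fold, and that difference was not called (adjusted p = 0.0953). Such a bound is no confidence limit. The CLOCK probe passed the filter on dim probes only through PBS eyes of normal dogs, its highest group. Tests against that group are therefore no independent support. In mutants no bound could be given and the fit had 0.54 ± 0.19 (adjusted p = 0.0579). The difference in normal dogs was -0.38 in the deposited values (adjusted p = 0.146), -0.37 with quantile normalization (adjusted p = 0.148) and, blocked by slide, -0.08 (adjusted p = 0.923). The call in normal dogs was lost without dog 1 (adjusted p = 0.0632), 3 (0.057), 4 (0.0703) or 5 (0.052), and the estimate turned from -0.60 to 0.11 with normexp and to 0.35 with slide and dog as blocks. Without mutant dog 1 the difference in mutants was 0.75 with an adjusted p of 0.00929.

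Of the repressors, PER1, a period gene that light induces in the clock, had levels of 0.42, 0.44, 0.21, 0.35 and 0.29 in PBS eyes of normal dogs 1 to 5. In CNTF eyes of dogs 2 to 5 it was 0.59, 1.05, 0.53 and 0.88, and the spot of dog 1 was marked as an outlier and left out. The 4 measured CNTF eyes lay above all PBS eyes, with a difference of 0.44 ± 0.15 (1.36-fold, n = 4 dogs, adjusted p = 0.0326). In mutants PBS eyes had 0.27, 0.70, 0.54, 0.59 and 0.49 and CNTF eyes 0.60, 0.31, 0.51, 0.50 and 0.57, which overlap, with a difference of -0.02 ± 0.13 (adjusted p = 0.94). The rise in normal dogs rested on dogs 3 and 5: without dog 3 it was 0.31 (adjusted p = 0.15) and without dog 5 it was 0.39 (adjusted p = 0.11). It was 0.16 with normexp (adjusted p = 0.573), 0.21 in the deposited values (adjusted p = 0.323) and, blocked by slide, 0.27 (adjusted p = 0.67). The call was also lost with no filter on dim probes (adjusted p = 0.0611) and without the dogs of slide 3 (0.54, adjusted p = 0.051).

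PER2, the other period gene measured, was well above background on 1 of 20 arrays, PBS eye 2 of the normal dogs at -4.57. The remaining levels ran from -7.33 to -5.23 and were not well above background. It was not tested, and no fold is given.

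CRY1, a cryptochrome that represses the activating dimer, fell with CNTF on all 3 of its probes. On the main probe the PBS eyes of normal dogs 1 to 5 had 1.48, 1.48, 1.77, 1.53 and 1.76 and the CNTF eyes 0.89, 0.95, 1.08, 1.15 and 0.94. The PBS eyes of mutants had 1.34, 1.40, 1.63, 1.38 and 1.52 and the CNTF eyes 1.12, 1.01, 1.26, 0.96 and 1.12. PBS and CNTF eyes did not overlap in either genotype. The difference was -0.60 ± 0.09 in normal dogs (1.52-fold lower, n = 5, adjusted p = 0.00035) and -0.36 ± 0.09 in mutants (1.28-fold lower, n = 5, adjusted p = 0.0107). On probe A_11_P089671, printed above, it was larger, at -1.24 ± 0.09 (2.36-fold lower) and -0.77 ± 0.09 (1.70-fold lower), and on A_11_P150698 it was -0.62 ± 0.10 and -0.31 ± 0.10. All 6 values were called, and each was lower in 5 of 5 dogs. On the main probe slide as a block gave -0.83 (adjusted p = 0.0881) and -0.47 (adjusted p = 0.503), and without the dogs of slide 3 the mutants had -0.32 (adjusted p = 0.147).

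The other cryptochrome, CRY2, lay near background and its probes gave different answers. The main probe was well above background on 15 of 20 arrays. Normal dogs had -3.41, -3.40, -3.86, -3.47 and -3.86 in PBS eyes and -4.77, -4.22, -3.93, -3.85 and -2.87 in CNTF eyes, which overlap. Mutants had -3.71, -2.98, -2.94, -3.60 and -3.18 in PBS eyes and -4.09, -4.01, -4.82, -4.34 and -4.35 in CNTF eyes, which do not. The difference was -0.33 ± 0.29 (adjusted p = 0.359) in normal dogs and -1.04 ± 0.29 (adjusted p = 0.0211) in mutants, where 2 of 5 CNTF eyes were above background, so that no fold is given. The second probe, above background on 6 of 20 arrays, was called in normal dogs instead, where no CNTF eye was above background (at least 1.04-fold higher in PBS eyes, adjusted p = 0.000201), and had -0.33 ± 0.14 in mutants (adjusted p = 0.0932). That second probe passed the filter only through PBS eyes of normal dogs, so its call there is no support. The call in mutants was lost without dog 2 (adjusted p = 0.0522), 3 (0.0832) or 5 (0.0598), without the dogs of slide 3 (0.0745) and with slide as a block (-1.65, adjusted p = 0.165), and the value was 0.21 with normexp (adjusted p = 0.617).

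**Figure D2:**
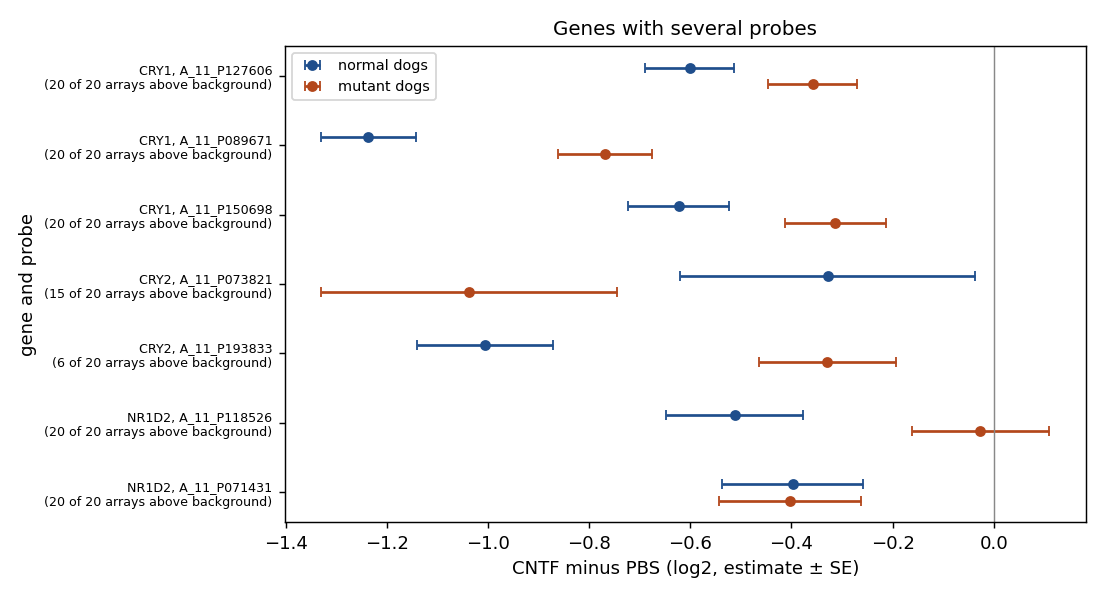
CNTF minus PBS (log2, estimate ± SE, horizontal axis) for every tested probe of the 3 genes with several probes, in normal (blue) and mutant dogs (orange). The 3 CRY1 probes lie below 0 in both genotypes, while for CRY2 the genotype further from 0 differs between probes, and for NR1D2 the genotypes lie apart on the main probe and together on the second.

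Of the nuclear receptors that repress ARNTL, NR1D1 was called lower in mutants and NR1D2 in normal dogs. NR1D1 had 2.39, 2.22, 1.93, 1.92 and 1.86 in PBS eyes and 1.94, 1.80, 2.04, 1.67 and 1.85 in CNTF eyes of normal dogs 1 to 5. In mutants it had 2.21, 2.82, 2.47, 2.38 and 2.16 in PBS eyes and 1.77, 2.26, 1.81, 1.77 and 1.67 in CNTF eyes, lower in 5 of 5 dogs, although mutant CNTF eye 2 overlapped the PBS eyes. The difference was -0.21 ± 0.10 in normal dogs (adjusted p = 0.11) and -0.55 ± 0.10 in mutants (1.46-fold lower, adjusted p = 0.00218). In normal dogs it passed with quantile normalization (-0.32, adjusted p = 0.0106) and in the deposited values (-0.34, adjusted p = 0.00928); with slide as a block it was 0.24 (adjusted p = 0.734) in normal dogs and -0.48 (adjusted p = 0.721) in mutants. The brighter probe of the neighbouring THRA gene had 0.40 ± 0.13 in normal dogs (adjusted p = 0.0252) and -0.21 ± 0.13 in mutants (adjusted p = 0.254).

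NR1D2 had 3.28, 3.72, 3.83, 3.69 and 3.73 in PBS eyes and 3.11, 3.51, 2.93, 3.37 and 2.77 in CNTF eyes of normal dogs, lower in 5 of 5 although PBS eye 1 overlapped the CNTF eyes. In mutants it had 3.53, 3.02, 3.09, 3.38 and 3.69 in PBS eyes and 3.26, 2.88, 3.30, 3.41 and 3.73 in CNTF eyes, which overlap. The difference was -0.51 ± 0.14 in normal dogs (1.43-fold lower, adjusted p = 0.01) and -0.03 ± 0.14 in mutants (adjusted p = 0.909). Its second probe, A_11_P071431, differed by nearly the same amount in both genotypes, -0.40 ± 0.14 in normal dogs (adjusted p = 0.0347) and -0.40 ± 0.14 in mutants (adjusted p = 0.0512). Both probes were called in normal dogs alone, and the size of the difference in mutants depended on the probe. With slide as a block the main probe had -0.74 (adjusted p = 0.366) in normal dogs.

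AANAT, the acetyltransferase of melatonin synthesis, was well above background on all 20 arrays. In normal dogs 1 to 5 it had 1.02, 0.87, 0.08, 0.59 and 0.64 in PBS eyes and 0.69, 0.59, 0.51, 0.25 and 0.93 in CNTF eyes, lower in 3 dogs and higher in 2. In mutants it had 1.22, 1.89, 1.45, 1.57 and 0.84 in PBS eyes and 0.78, 1.06, 0.45, 0.52 and -0.05 in CNTF eyes, lower in 5 of 5 dogs. The mutants' PBS eyes stood highest of the groups, at 1.39 ± 0.39 (SD, n = 5), and the remaining group means were 0.64 ± 0.36 (PBS normal), 0.59 ± 0.25 (CNTF normal) and 0.55 ± 0.41 (CNTF mutant), which lie within each other's spread. CNTF eyes differed from PBS eyes by -0.05 ± 0.14 in normal dogs (adjusted p = 0.787) and by -0.84 ± 0.14 in mutants (1.79-fold lower, adjusted p = 0.00107). With slide as a block the difference in mutants was -0.34 (adjusted p = 0.927). In PBS eyes, mutants exceeded normal dogs by 0.75 ± 0.22 (1.68-fold, adjusted p = 0.0953), and by 0.84 without normal dog 1 (adjusted p = 0.0377). In PBS eyes of male dogs alone the difference was 0.75 ± 0.25 (adjusted p = 0.266). Within slide 2, which holds the PBS eyes of normal dog 5 and mutants 1 to 3, it was 0.88. In CNTF eyes the genotypes differed by -0.04 ± 0.20 (adjusted p = 1), and within slide 4 by 0.22.

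**Figure D3:**
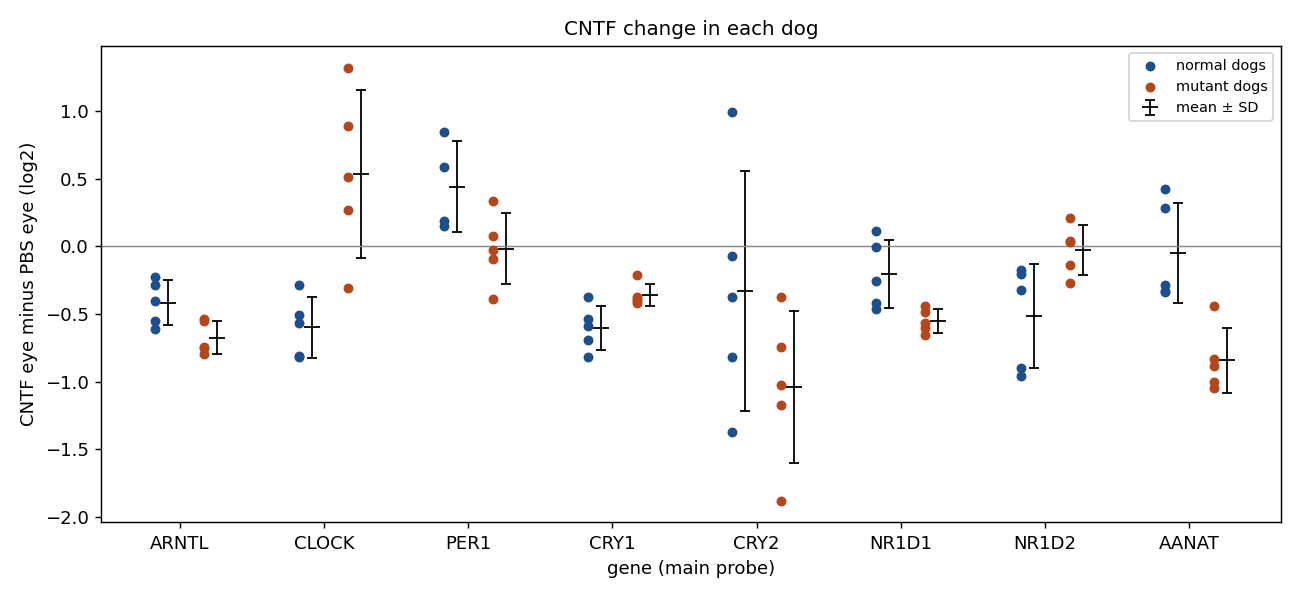
CNTF eye minus PBS eye of each dog (log2, vertical axis) for the main probes of 8 genes, in normal (blue) and mutant dogs (orange), with black bars for the mean ± SD. All dogs lie below 0 for ARNTL and CRY1. The values for AANAT run from -1.04 to -0.44 in mutants and from -0.34 to 0.42 in normal dogs. That difference between genotypes was not called (limma, adjusted p = 0.103).

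For none of the 9 members was the CNTF change called different between genotypes, and neither was that of any other probe (0% of 29334), although 5 of 9 members and 10163 of all probes had an unadjusted p under 0.05. The largest differences among members were those of CLOCK (1.13 ± 0.27, adjusted p = 0.103), much of it from arrays at background, and AANAT (-0.79 ± 0.20, adjusted p = 0.103). AANAT had an unadjusted p of 0.00208, and its adjusted p ranged from 0.0557 to 0.589 over 20 alternatives. So the calls in a single genotype, for AANAT, NR1D1, NR1D2, PER1, CLOCK and CRY2, were not shown to differ between genotypes. Between genotypes in PBS eyes limma called 0 of 9 members (0.0272% of 29422 probes). Of the 9, 2 had an unadjusted p under 0.05, AANAT and CLOCK, as had 10183 of the 29422 probes. Without normal dog 1 both were called, CLOCK with -0.91 (adjusted p = 0.0369), as were 6292 probes in all. In CNTF eyes 0 of 9 were called (0.00681% of 29355), and none had an unadjusted p under 0.05, against 1644 of all probes.

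The DBP-described probe rose more than any other probe of the set. It had -4.41, -4.37, -4.77, -2.86 and -5.07 in PBS eyes and 3.73, 3.13, 3.04, 3.17 and 3.66 in CNTF eyes of normal dogs. Mutants had -3.77, -3.50, -5.11, -4.69 and -3.86 in PBS eyes and 2.68, 3.49, 3.19, 3.33 and 3.10 in CNTF eyes. All 10 CNTF eyes were above background, against 3 of 5 PBS eyes in each genotype. The fitted differences were 7.64 ± 0.35 in normal dogs (n = 5 dogs, adjusted p = 1.52e-07) and 7.34 ± 0.35 in mutants (n = 5, adjusted p = 2.45e-07). Since 2 of 5 PBS eyes in each genotype were not well above background, no fold is given. With slide as a block they were 8.65 and 7.09 and were still called; with normexp they were 5.64 and 5.03. With slide and dog as blocks they were 9.48 (adjusted p = 0.0694) and 7.20 (adjusted p = 0.0951).

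The array neighbours of that probe moved far less. PRMT1, an arginine methyltransferase gene, has a probe 2149 bases away that rose by 1.31 in normal dogs and 0.63 in mutants, and a second one that rose by 1.46 and 0.70. Of the probes of CPT1C, a carnitine palmitoyltransferase gene on the other side, A_11_P0000021929 rose by 1.54 and 0.84, and A_11_P178148 had -0.18 in normal dogs and -0.17 in mutants (adjusted p = 0.11 and 0.17). At the place of DBP itself, the probe A_11_P112786, named CA11 and the nearest to SPHK2 of the 4 of that name, had -0.30 in normal dogs (adjusted p = 0.0561) and -0.78 in mutants (adjusted p = 0.000575). It was singled out after its values were seen, and whether it reads CA11 or DBP was not tested. The CA11 probe A_11_P0000028495 had -0.05 in normal dogs (adjusted p = 0.747) and -0.61 in mutants (adjusted p = 0.00529). The remaining CA11 probes were called in neither genotype. An unnamed probe closer to SPHK2, A_11_P158018, listed on the opposite strand, had 0.56 in normal dogs (adjusted p = 0.00351) and 0.05 in mutants (adjusted p = 0.795).

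**Figure D4:**
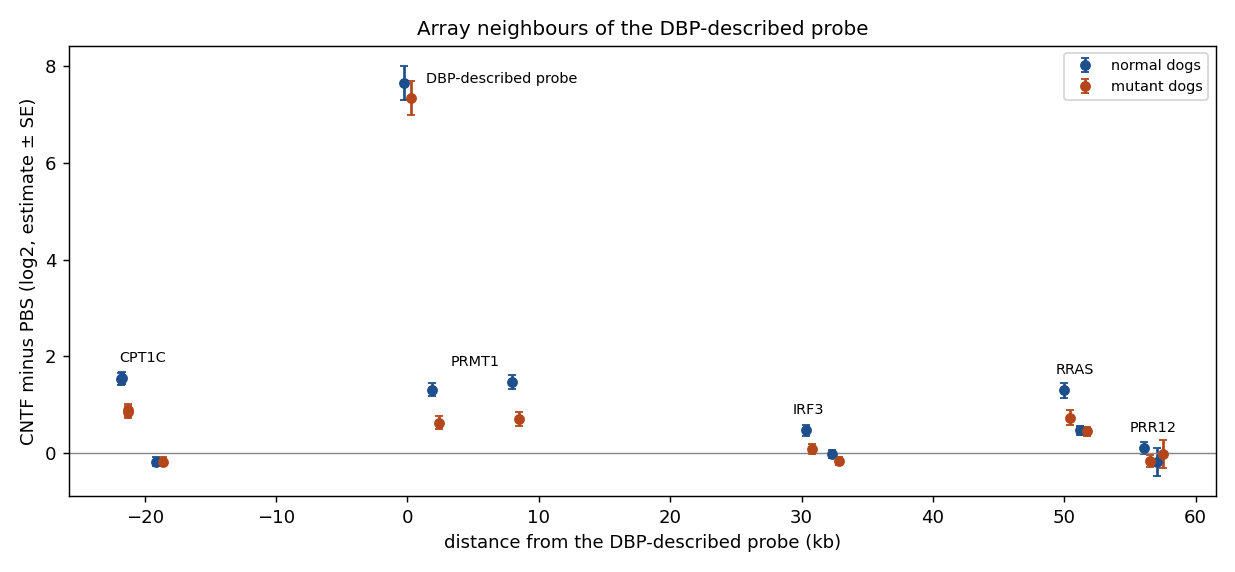
CNTF minus PBS (log2, estimate ± SE, vertical axis) of tested probes within 60 kb of the DBP-described probe, by distance from it in kb, in normal (blue) and mutant dogs (orange); unnamed points are probes without a gene symbol. The DBP-described probe stands at 7.64 and 7.34, and the highest neighbour in normal dogs, CPT1C, has 1.54.

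Members also varied within groups, and part of that variation was shared by much of the array. The deviations of the 27888 tested probes measured on all arrays from their group means had a leading axis with 34.9% of the variance, and 35.7% of probes correlated with it at a size of 0.7 or more over the 20 arrays, which are both eyes of 10 dogs and so not independent. AANAT (r = 0.83), NR1D1 (0.81) and NR1D2 (-0.82) lay close to that axis, ARNTL (0.29), CLOCK (0.10) and the DBP-described probe (0.18) did not, and PER1 (0.45), CRY2 (0.44) and CRY1 (-0.49) lay between. What the axis is was not tested. Among the 36 pairs of members the correlation of deviations ranged from -0.81 to 0.77 with a median of 0.08. AANAT and NR1D1 rose and sank together (r = 0.77) and both ran against NR1D2 (-0.81 and -0.80), as the main THRA probe did (-0.93 with NR1D2). ARNTL ran against the DBP-described probe (-0.67).

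The genes most like 3 of the members, of 7851 with a symbol and a probe above background on all arrays, were found by the same deviations over 20 arrays. For AANAT they were ANAPC11 (r = 0.94), PTRHD1 (0.94) and TPRG1L (0.94), and for NR1D1 MCM7 (0.95), CKS1B (0.95) and VASP (0.94). Such likeness was common: 27.0% of tested probes correlated with AANAT, and 26.4% with NR1D1, at a size of 0.7 or more. For ARNTL they were HEATR3 (r = 0.78), LRRFIP2 (0.73) and TPM3 (0.71), in a field where 0.0681% of probes reached that size.

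Whether both eyes of a dog deviated alike from their groups was examined over 10 dogs for the 9 tested members, 9 relations in all. Pearson's r was 0.66 for NR1D1 (permutation p = 0.0575, Spearman's rho = 0.60, permutation p = 0.0723) and 0.62 for AANAT (permutation p = 0.0571, rho = 0.54, permutation p = 0.111). Without the 2 dogs farthest from the median these r fell to 0.11 and 0.38. Leaving out extreme dogs narrows the range and can itself lower r, so whether the correlations rest on those dogs was not settled. PER1 went the opposite way, with r = -0.71 over 9 dogs (permutation p = 0.0309, rho = -0.78, permutation p = 0.0184) and -0.77 without the 2 farthest. After Benjamini-Hochberg adjustment over the 9 relations the permutation p of all 3 was 0.173 for r, and for rho 0.166 (PER1), 0.325 (NR1D1) and 0.333 (AANAT). The remaining r ran from -0.51 (CRY2) to 0.45 (CRY1), with permutation p from 0.151 upwards. Over all tested probes the median r was 0.34, with quartiles of 0.11 and 0.55, and that of the members was 0.27.

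Of 59 further genes of the clock and melatonin pathway 52 were on the array and 41 were tested for CNTF. In normal dogs 11 of them were higher and 10 lower in CNTF eyes, with a median difference of -0.04, and in mutants 5 were higher and 10 lower, with a median of -0.07. Of all tested probes 51.2% and 28.9% were called. None was called between genotypes or for the difference of the CNTF change between them.

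In the clock loop 2 of 7 genes were called in each genotype, 1 higher and 1 lower. RORA, the receptor that activates ARNTL where NR1D1 represses it, fell by 1.32 ± 0.17 in normal dogs (adjusted p = 0.000138) and had -0.48 ± 0.17 in mutants (adjusted p = 0.0524). CIART, a repressor of the activating dimer, had -0.25 ± 0.16 in normal dogs (adjusted p = 0.205) and fell by 1.02 ± 0.16 in mutants (adjusted p = 0.000749). NFIL3, a repressor that competes with DBP and its relatives at their sites, rose by 0.38 ± 0.09 and 0.34 ± 0.09 (adjusted p = 0.00683 and 0.0187). TEF, a relative of DBP, had 0.11 ± 0.24 in normal dogs (adjusted p = 0.725) and -0.69 ± 0.24 in mutants (adjusted p = 0.0525).

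Among 10 kinases, phosphatases and ubiquitin ligases of the clock 4 were higher and 1 lower in normal dogs, and 2 were lower in mutants. The phosphatase subunit PPP1CA and CSNK1D, a kinase of PER proteins, rose in normal dogs by 0.99 ± 0.15 (adjusted p = 0.000546) and 0.66 ± 0.13 (adjusted p = 0.00234) and had 0.03 and 0.09 in mutants. DDB1, an adaptor of another ligase, fell by 0.69 ± 0.13 in mutants (adjusted p = 0.00256) and had -0.11 in normal dogs. Of 4 tested outputs 3 were lower in normal dogs and 1 in mutants. NOCT, a clock-driven gene once named for its rhythm in the retina, fell by 0.58 ± 0.13 and 0.55 ± 0.13 (adjusted p = 0.00385 and 0.00811), and PPARGC1A and SIRT1 fell by 0.39 ± 0.10 and 0.48 ± 0.15 in normal dogs (adjusted p = 0.00627 and 0.0217), where NAMPT had -0.21 ± 0.16 (adjusted p = 0.28).

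Of 12 genes of melatonin and its control 3 were higher and 2 lower in normal dogs, and 2 higher and 4 lower in mutants. CREM, a cAMP-responsive factor whose short form represses Aanat in the pineal gland, rose by 0.89 ± 0.15 in normal dogs and 1.45 ± 0.15 in mutants (adjusted p = 0.000907 and 3.95e-05), and which of its forms the probe reads was not tested. ATF1 fell by 0.92 ± 0.16 in normal dogs (adjusted p = 0.000981), the adenylyl cyclase ADCY1 fell by 0.50 ± 0.13 and 0.59 ± 0.13 (adjusted p = 0.00723 and 0.00482), and OTX2, a photoreceptor factor, rose by 0.42 ± 0.13 and 0.61 ± 0.13 (adjusted p = 0.0206 and 0.00489). No probe carried the name of ASMT, the last enzyme of the pathway, or of TPH1, the first, and TPH2 was not well above background on any array.

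Of 8 genes of dopamine and light input 3 were higher and 3 lower in normal dogs, and 2 higher and 2 lower in mutants. OPN4, the melanopsin gene of light-sensitive ganglion cells, rose by 1.29 ± 0.11 in normal dogs and 1.14 ± 0.11 in mutants (adjusted p = 6.52e-06 and 2.01e-05), and ADCYAP1, which encodes the peptide PACAP of the same cells, rose by 1.22 ± 0.14 and 0.88 ± 0.14 (adjusted p = 6.61e-05 and 0.000796). GRIA2, a glutamate receptor subunit, fell by 1.40 ± 0.23 in normal dogs (adjusted p = 0.000802) and had -0.18 in mutants (adjusted p = 0.603). PDE4D, a cAMP phosphodiesterase, was called lower in normal dogs (adjusted p = 0.00208), where no CNTF eye was above background. Its probe passed the filter only through PBS eyes of normal dogs, so that call is no support.

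**Figure D5:**
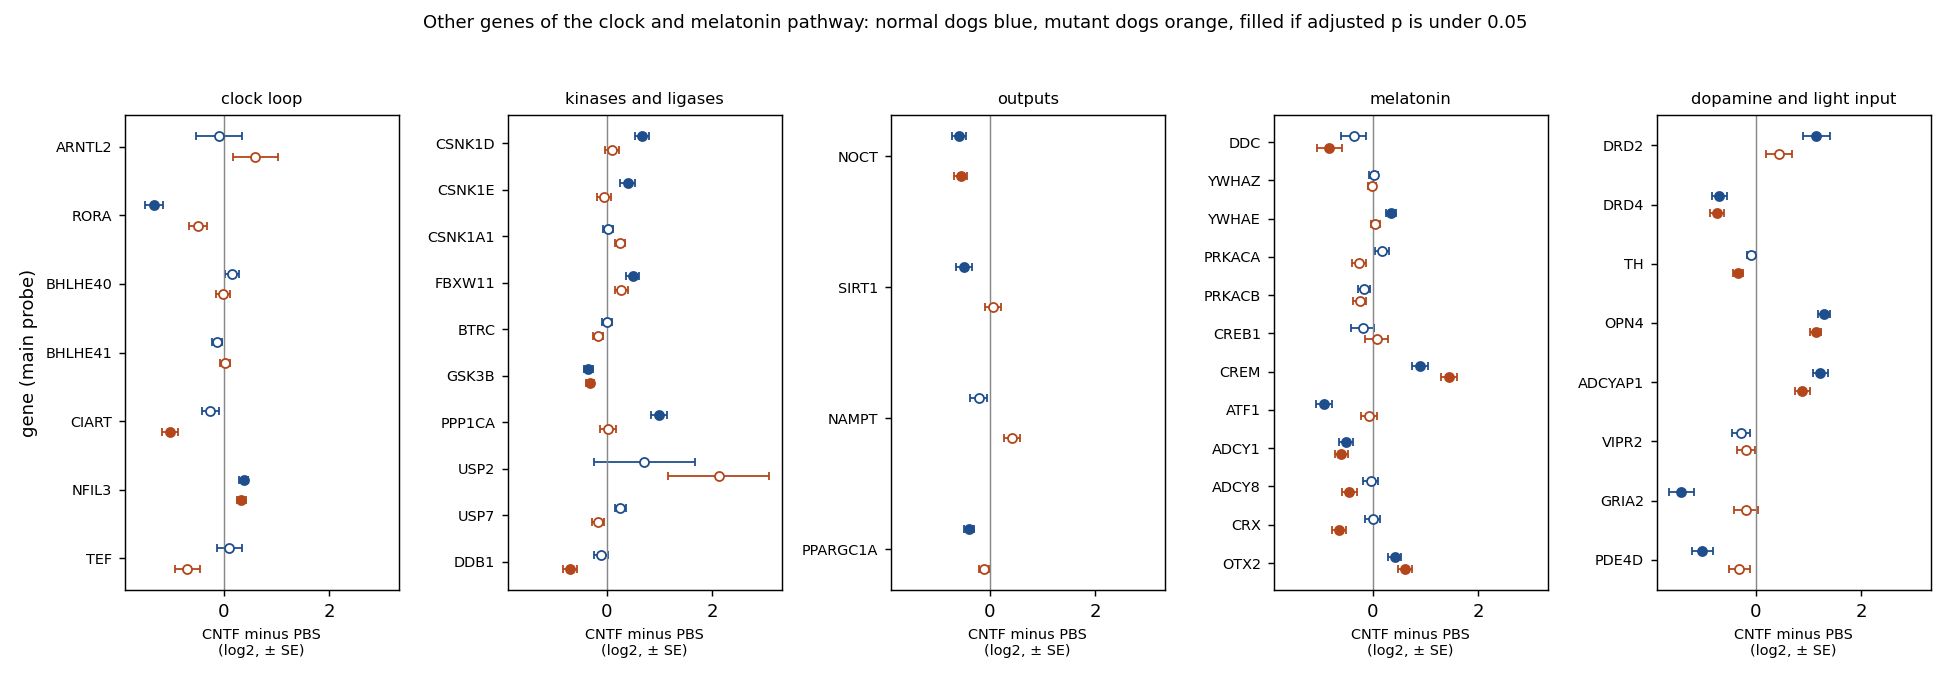
CNTF minus PBS (log2, estimate ± SE, horizontal axis) of the 41 tested pathway genes in 5 groups, in normal (blue) and mutant dogs (orange), filled where the adjusted p is under 0.05. OPN4, ADCYAP1, CREM, OTX2 and NFIL3 lie above 0 and filled in both genotypes, and ADCY1, NOCT, DRD4 and GSK3B lie below 0 and filled in both.

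The tissue showed its markers: 8 of 8 rod and 6 of 6 cone genes on the array were well above background on at least 4 PBS eyes of normal dogs. In such whole retinas fewer cells of a type and less RNA per cell cannot be told apart. Of these rod genes 2 were lower and 1 higher with CNTF in normal dogs, and 6 of 8 were lower in mutants. Their summed linear signal, in multiples of the 75th percentile, was 429 to 679 in PBS and 391 to 630.1 in CNTF eyes of normal dogs, and 454 to 1031 and 398 to 652 in mutants. But SAG was saturated on all 20 arrays, PDE6B on all 10 PBS eyes, and PRPH2 and PDE6A on some PBS eyes, so the sums do not hold the full signal of these probes. A spot left out as an outlier added nothing to this or any sum below. PRPH2 and PDE6B were among the rod genes with spots left out, so the low ends of the rod ranges can reflect missing spots. Of the cone genes 5 were lower in normal dogs and 4 lower and 1 higher in mutants, and their sum was 80.5 to 100.0 in PBS and 21.6 to 30.9 in CNTF eyes of normal dogs, and 69.1 to 97.8 and 21.8 to 35.8 in mutants. All 6 microglia and macrophage genes were higher with CNTF in both genotypes, and their sum was 1.38 to 2.37 in PBS and 17.5 to 28.3 in CNTF eyes of normal dogs, and 2.26 to 4.06 and 18.6 to 32.3 in mutants. Amacrine markers were lower in 4 of 5 in both genotypes, with sums of 3.39 to 4.13 in PBS and 2.11 to 2.58 in CNTF eyes of normal dogs, and 3.29 to 3.93 and 2.17 to 2.56 in mutants. Bipolar markers were lower in 3 of 5 in both genotypes, with sums of 14.0 to 22.0 and 10.1 to 13.1 in normal dogs, and 14.1 to 19.7 and 10.6 to 15.7 in mutants. Of 4 tested ganglion cell markers 2 were higher in both genotypes, SNCG by 3.23 and 2.65 and THY1 by 1.12 and 0.89. OPN4 and ADCYAP1, which are genes of such cells, were higher in both as well. NEFL was lower in both (-0.76 and -0.63). NEFM had -0.07 in normal dogs (adjusted p = 0.578) and was lower in mutants (-0.37, adjusted p = 0.0243). Of 5 markers of Müller glia 2 were higher and 1 lower in normal dogs and 2 lower in mutants, and GLUL was lower in both (-0.96 and -1.96). Of 5 markers of the pigment epithelium 1 was lower in each genotype. RPE65 and TTR of that list were saturated on part of the arrays, and CLU of the Müller glia list on nearly all. A change in these 3 genes may thus be hidden. The part of these cell markers in the members' differences was not tested. Of the genes listed for the pineal gland LHX4 alone was on the array. It was well above background on all 5 arrays of each group of these retinas, so it does not mark pineal tissue here. LHX4 had -0.09 in normal dogs (adjusted p = 0.666) and -0.78 in mutants (adjusted p = 0.00415).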

How the data were processed

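Retinal RNA of 20 eyes was labelled from 100 ng with a whole-transcript one-colour kit and hybridised to Agilent dog arrays, 1 eye to an array, on 5 slides. The deposited scanner files hold intensity per spot, background-corrected by Agilent Feature Extraction 9.5.3.1, per the file headers. A deposited table holds the authors' log2 values of the same arrays (median 6.18), used as an alternative; the submitters' processing notes name Partek 6.4, and how it scaled them is not given in the sources used here. Against log2 processed intensity their slope was 0.95 to 1.08 across arrays.

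Here, control and outlier spots were left out, log2 processed intensity minus each array's 75th percentile was taken, and spots of a probe were averaged. Between 52.0% and 71.8% of probes were well above background, the 75th percentile was 291 to 592 intensity units, and the number of arrays limits the precision. Of 43603 probes 29466 were well above background on at least 4 arrays of a group, and those with at least 3 measured arrays in each group were tested with limma 3.58.1 in R 4.3.3, adjusted by the Benjamini-Hochberg method. CNTF effects were fitted on all 20 arrays with the dog as a block, and genotypes were compared within PBS or CNTF eyes. The block follows the animals, with eyes joined by genotype and the replicate number of the sample titles. Deviations of the eyes of a dog correlated over tested probes at -0.15 to 0.29 in normal dogs and 0.19 to 0.69 in mutants. The eye of the same dog was the best match for normal dog 4 and mutant dogs 2 to 5, and not for the remaining dogs. Gene symbols came from the gene names or descriptions of the file, or from its gene numbers and synonyms through RefSeq, and 22793 probes have none.

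All members are named; of each of 5 further gene lists at most 4 genes with the smallest adjusted p are named, and likeness was sought for 3 members. Members and lists were chosen with earlier results of these data known. Some genes of these lists are not reported here and were left out of the counts and sums.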

Additional observations from a re-analysis of the deposited data

Results flagged for a closer look

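For each of the 9 tested members in each of the 4 groups, 36 sets of 5 arrays (4 for PER1 in CNTF eyes of normal dogs), the gap between an extreme array and its nearest neighbour was set against the range of the group, and 3 exceeded the critical value, which is 0.71 for 5 arrays; chance exceeds it in about 1 in 20 groups. The CLOCK level of CNTF eye 1 of the normal dogs was -5.29, with the nearest at -4.64, and all 5 of that group were not well above background. The NR1D1 level of CNTF eye 2 of the mutant dogs was 2.26, with the nearest at 1.81. The NR1D2 level of PBS eye 1 of the normal dogs was 3.28, with the nearest at 3.69.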

How the results depend on the processing

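Where not stated otherwise, the cause of a change was not tested. With slide as a block 1 member was called in either genotype for CNTF, and 1147 (normal) and 795 (mutant) probes. With slide and replicate block, that is slide and dog, 0 members were called, and 0 (normal, with 4756 at an unadjusted p under 0.05) and 47 (mutant) probes. Without the dog as a block the pairing was ignored, and 6 members were called in each genotype, with 11518 and 6664 probes. With normexp, 3 members were called in normal dogs, with 5790 probes (3377 higher, 2413 lower), and in mutants 3322 probes (1807 higher, 1515 lower), against 6911 higher and 8103 lower, and 3409 higher and 5064 lower, in the reported fit; the median of all probes was 0.08 and 0.17. With probes above background on all 20 arrays, which tests fewer members, 3 were called in normal dogs. Without the dogs of slide 3, chosen after seeing the data, 4749 probes were called in mutants. CLOCK in normal dogs turned to 0.11 with normexp and 0.35 with slide and dog as blocks, and CRY2 in mutants to 0.21 with normexp.

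The difference between genotypes gained 69 probes with slide as a block and 45 with slide and dog. In PBS eyes 8 probes were called, and 1 in the deposited values, 4 with no filter, 2 with normexp, 1 with quantile normalization, 2 with slide as a block, 60 with all 20 arrays in the fit and 30 in male dogs. In CNTF eyes 2 were called, and 0 with probes above background on all arrays, in the deposited values, with no filter, with normexp and with quantile normalization, 103 with slide as a block, 18 with all 20 arrays and 5 in male dogs. When each dog was left out in turn, members called were 4 to 6 (CNTF, normal), 5 to 7 (CNTF, mutant), 0 to 0 (difference), 0 to 2 (PBS eyes) and 0 to 0 (CNTF eyes), and probes 10950 to 14941, 6382 to 8599, 0 to 4, 1 to 6292 (the highest without normal dog 1) and 0 to 60 (the highest without mutant dog 1). The eye-to-eye correlation of ARNTL moved from -0.01 to -0.30 in the deposited values. Dim probes, such as CLOCK, CRY2 and PER2, are limited by background.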
